A study of Caenorhabditis elegans with 2 samples.

Results

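The PUF family of Caenorhabditis elegans was examined as the 10 genes puf-3, puf-5, puf-6, puf-7, puf-8, puf-9, puf-11, puf-12, fbf-1 and fbf-2, taken by symbol from the 19973 nuclear protein-coding genes of the Ensembl annotation of WBcel235. All 10 symbols were matched, and RefSeq describes each product as a Pumilio (PUM-HD) domain protein or, for fbf-1 and fbf-2, as a fem-3 mRNA-binding factor. The family was chosen by the strong peak measured near puf-9 in these same data, so the counts and signal values below are descriptions and carry no test.

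PUF proteins are RNA-binding proteins named after Pumilio of Drosophila and FBF of C. elegans. Their Pumilio repeats read short sequences in the 3' untranslated regions of mRNAs, and the bound mRNAs are mostly repressed or degraded. In C. elegans most members act in the germline, where FBF-1 and FBF-2 keep stem cells undifferentiated and others act in spermatocytes, oocytes and embryos. PUF-9 acts in somatic tissue, where it represses the heterochronic gene hbl-1, which times larval cell fates, through its 3' untranslated region.

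The data were ChIP-seq peak lists for the nuclear hormone receptor NHR-12 carrying eGFP, in whole L2 larvae of strain OP318, which carries the integrated transgene wgIs318 and unc-119(ed3) on chromosome III. ChIP-seq recovers DNA that lay near the tagged protein. The 2 samples were biological replicates of this 1 group, of pooled male and female animals, with fragments of 150 to 350 bp and nhr-12 given as the antibody target. Animal age is labelled unknown, and no strain without the tag was analysed here. Signal in few cells and weaker signal in many cells cannot be told apart in whole animals.

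The 4 lists on the ce11 build held 30000 relaxed peaks for each replicate, 29431 relaxed peaks for the pooled replicates and 228 pooled peaks kept after an IDR threshold, called the thresholded list here (IDR, irreproducible discovery rate, scores how well replicates match in rank). Relaxed lists reach deep into background: their lowest signal values were 2.40 in replicate 1, 7.66 in replicate 2 and 9.21 in the pool, and a gene without a summit may have had signal below these. The signal value of each peak is the authors' own and was made against a control. Its scale is not shared by the replicates and the pool, while the thresholded list is on the pooled scale. Read depth is unknown. For each gene, summits were sought in the gene body and in the 2000 bp upstream of its 5' end.

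The sequences at the summits that matter most are shown first, on the strand of the gene, to compare the strong puf-9 site with weaker sites upstream of puf-5 and puf-3. They were read from the RefSeq WBcel235 genome, the same assembly as ce11, and capitals mark matches to any of 7 motifs described further on. The puf-9 main site (chrX:5841188-5841487, plus strand) and the puf-3 site (chrIV:13512914-13513213, minus strand) span 300 bases around the pooled summit. The puf-5 stretch (chrII:8575391-8575540, plus strand) is the last 150 bases before the gene.
puf-9 main site: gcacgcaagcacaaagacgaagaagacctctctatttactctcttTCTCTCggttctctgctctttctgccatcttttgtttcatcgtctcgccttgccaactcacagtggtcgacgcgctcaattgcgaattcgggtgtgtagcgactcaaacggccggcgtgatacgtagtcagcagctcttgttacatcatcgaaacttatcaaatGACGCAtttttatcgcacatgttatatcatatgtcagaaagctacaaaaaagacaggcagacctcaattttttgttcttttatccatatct
puf-5 upstream: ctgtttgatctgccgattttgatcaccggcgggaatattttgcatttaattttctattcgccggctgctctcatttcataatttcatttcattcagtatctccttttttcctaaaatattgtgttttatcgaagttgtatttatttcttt
puf-3 upstream site: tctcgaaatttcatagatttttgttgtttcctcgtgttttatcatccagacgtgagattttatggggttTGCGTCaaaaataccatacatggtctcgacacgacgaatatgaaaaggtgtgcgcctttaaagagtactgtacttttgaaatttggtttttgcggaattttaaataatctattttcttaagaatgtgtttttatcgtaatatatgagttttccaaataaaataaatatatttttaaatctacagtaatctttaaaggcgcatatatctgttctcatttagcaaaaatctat
GC content was 43.7% in the 300 bases at the puf-9 main site and 29.7% in the 300 bases at the puf-3 site. The 300 bases around the puf-5 summit nearest to its 5' end had 38%.

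puf-9 (WBGene00004245, X: 5841592 to 5845987, plus strand) was the member with a summit in the thresholded list, and its main site was strong in both replicates. The thresholded and pooled summit lay 254 bp upstream of the gene 5' end, in a peak from 5841178 to 5841497. Its signal value was 99.4 in the pool, 30.4 in replicate 1 and 64.2 in replicate 2. These values ranked 37 of 29431, 34 of 30000 and 42 of 30000, and 9, 11 and 15 when mitochondrial peaks were left out. Relative to the median signal of each list, the site stood at 7.86 in the pool, 8.23 in replicate 1 and 6.01 in replicate 2, so both replicates placed it far above a typical peak of their own list. The summits of the replicates were 10 bp apart, and replicate 2 and the pool gave the same base. The −log10 q-value was the highest of the list in every case: 2.66 in the pool, 3.04 in replicate 1 and 2.63 in replicate 2. It is a ceiling that many peaks share, 227 in the pool, 543 in replicate 1 and 214 in replicate 2.

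A second, weaker puf-9 summit was listed in each relaxed list, 1370 bp upstream in the pool and replicate 2 and 1384 bp upstream in replicate 1. Its signal value was 13.0 in the pool, 4.003 in replicate 1 and 9.24 in replicate 2, close to each list's median. The ratio of the main to the second site was 7.64 in the pool, 7.61 in replicate 1 and 6.94 in replicate 2. The second summit lay nearer to dct-11 than to puf-9, 444 bp from the 5' end of that gene in the pool. It was not in the thresholded list.

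**Figure D1:**
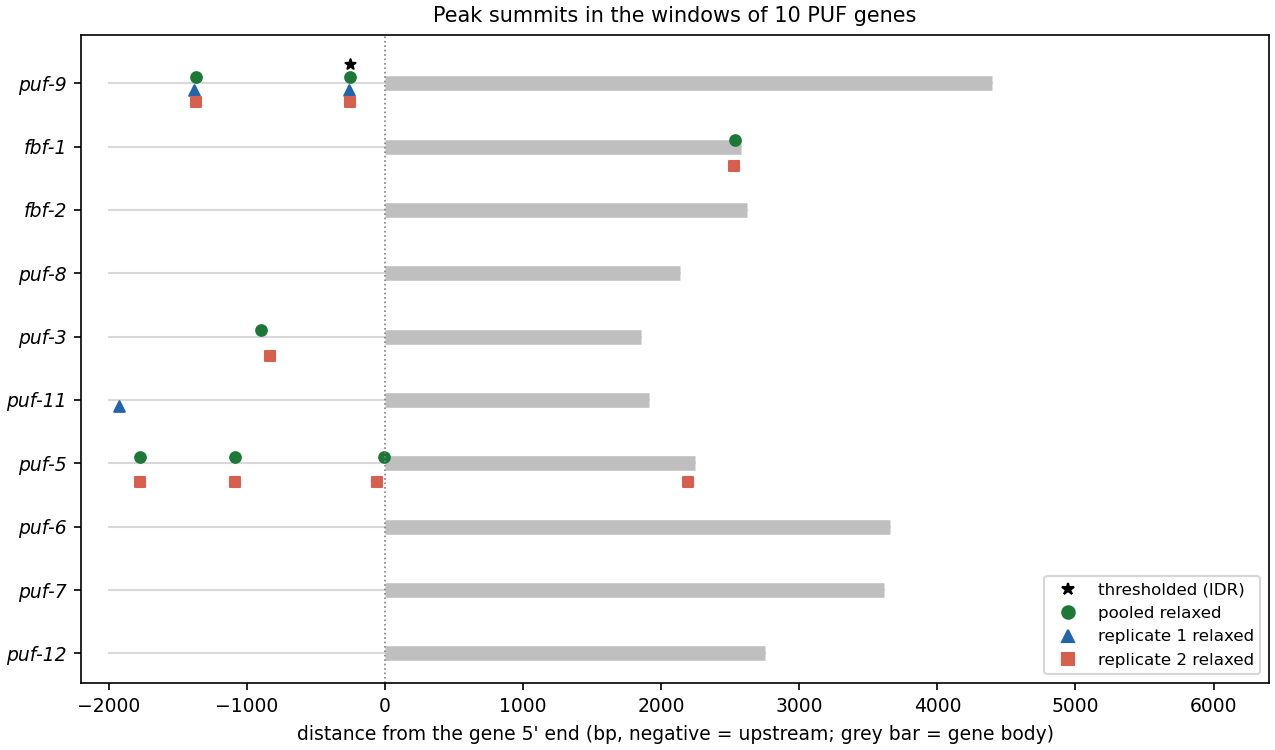
Positions of peak summits in the windows of the 10 PUF genes, as distance from the gene 5' end in bp (horizontal axis), with a symbol for each list and grey bars for gene bodies. All 4 lists have a summit near 254 bp upstream of puf-9, while fbf-2, puf-8, puf-6, puf-7 and puf-12 have none in any list.

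The main puf-9 site did not lie at a lone promoter. puf-9 and dct-11 are transcribed away from each other across 1813 bp, and the annotation places a pair of overlapping non-coding RNA genes in that stretch. W06B11.7 (WBGene00196810, X: 5841170 to 5841350, minus strand) and W06B11.9 (WBGene00199258, X: 5841185 to 5841361, plus strand) both hold the summit in an exon. The 5' end of W06B11.7 was the nearest of any gene, 12 bp from the pooled summit, and the thresholded peak covered 173 of its 181 bp and all 177 bp of W06B11.9. The nearest protein-coding 5' end was that of puf-9, with dct-11 1560 bp away. Peak lists carry no strand, so signal at puf-9 and at these non-coding genes cannot be told apart.

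Among the 42 thresholded peaks on X, the puf-9 peak was second by signal, after a peak of 101.4, and the median of these peaks was 49.9. No thresholded peak fell in the windows of the 6 members on chromosome II or the 3 on chromosome IV. Those chromosomes held 31 and 22 thresholded peaks. The thresholded list had a summit in the windows of 1.29% of all protein-coding genes, so a window without one is the usual case. It had a summit in the windows of 1 of 10 members. Because this list led to the choice of the family, nothing is read from that difference.

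In the relaxed lists the PUF genes as a group were not rich in summits. The pooled list had a summit at 4 of 10 members, puf-9, fbf-1, puf-3 and puf-5, against 64.3% of all protein-coding genes. Replicate 1 had one at puf-9 and puf-11, 2 of 10 members against 72.5% of genes. Replicate 2 had one at the same 4 members as the pool, against 64.6% of genes. puf-9 was the 1 member with a summit in both replicates, against 51.8% of genes, and the 1 member whose strongest summit was within the upper 1000 of both replicates, against 1.65% of genes. Since the puf-9 peak led to the choice of the family, nothing is read from the count in the upper 1000. The windows of the members had a median of 4600 bp (3856 to 6396 bp), and those of the 8 germline members 4414 bp. The median for all protein-coding genes was 4027 bp. The part of window length in these counts was not tested.

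**Figure D2:**
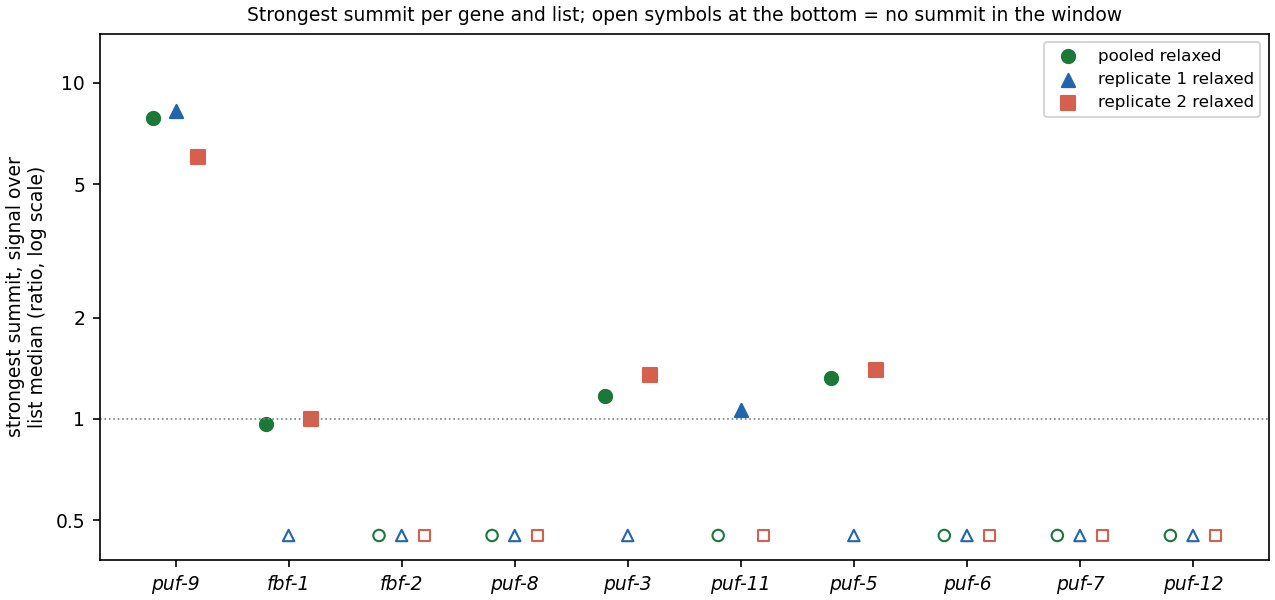
Signal of the strongest summit of each PUF gene divided by the median signal of its list (vertical axis, ratio, log scale) in the 3 relaxed lists, with open symbols at the bottom where no summit was listed. puf-9 lies between 6.01 and 8.23, and every other member with a summit lies between 0.963 and 1.40.

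Of the FBF pair, which maintain germline stem cells and control the switch from sperm to oocytes, fbf-1 (WBGene00001401, II: 6078263 to 6080843, minus strand) had 1 weak summit. It lay in the 3' untranslated region, 2531 bp downstream of the 5' end in the pool, with a signal value of 12.2 and rank 16255. Replicate 2 gave 10.7 at rank 15007, with a summit 3 bp away, and replicate 1 had none in the window. The 5' end nearest to that summit was that of the non-coding gene H12I13.5, 82 bp away in the pool. At fbf-2 (WBGene00001402, II: 6088863 to 6091480, minus strand) no list had a summit, and the nearest relaxed summit was 6.15 kb from its 5' end, in replicate 1.

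puf-8 (WBGene00004244, II: 7296110 to 7298247, minus strand), which acts in germline proliferation and in spermatocytes, had no summit in any list. The nearest summit was 3617 bp upstream in replicate 1, where the 5' end of cul-4 was nearest, with a signal value of 6.13. In the pool and in replicate 2 the nearest summits were 16.5 kb and 16.6 kb away.

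puf-3 and puf-11 encode a closely similar pair of maternal PUF proteins. puf-3 (WBGene00004239, IV: 13510307 to 13512162, minus strand) had 1 summit, 902 bp upstream in the pool, with a signal value of 14.8 and rank 9059. In replicate 2 it was 835 bp upstream with 14.4 and rank 5598, and replicate 1 had none. This summit lay in an intron of afmd-2, a gene on the other strand. puf-11 (WBGene00022257, IV: 6421585 to 6423497, plus strand) had 1 summit in replicate 1, 1926 bp upstream, with 3.94 and rank 13128, inside coding sequence of htp-2, which encodes a meiotic axis protein. The pool and replicate 2 had none at puf-11, so the pair had no list in common.

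puf-5, puf-6 and puf-7 act in oocyte formation and in repression of glp-1 mRNA, which encodes the Notch receptor of the germline. puf-5 (WBGene00004241, II: 8575541 to 8577787, plus strand) had the most summits of any member, 3 in the pool and 4 in replicate 2, but none in replicate 1. Its strongest lay 11 bp upstream of the 5' end in the pool, with a signal value of 16.7 and rank 5829. In replicate 2 the strongest lay 61 bp upstream, 50 bp from the pooled position, with 14.9 and rank 4805. The next summits, 1778 and 1089 bp upstream in the pool with 14.9 and 9.63, lay in an intron and in coding sequence of the neighbouring gene F54C9.7. The fourth summit of replicate 2, at 7.74 and rank 29495, lay in the 3' untranslated region of puf-5. puf-6 (WBGene00004242, II: 13039792 to 13043445, minus strand) and puf-7 (WBGene00004243, IV: 5486713 to 5490322, plus strand) had no summit in any list, and the nearest pooled summits were 6.63 kb and 5.19 kb from their 5' ends.

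puf-12 (WBGene00014165, II: 10100310 to 10103061, plus strand) is set apart here from the germline members. No list had a summit in its window, and the nearest, in replicate 1, was 2952 bp upstream with a signal value of 3.83. Summits just inside the 2000 bp limit were those of puf-11 at 1926 bp and of puf-5 at 1778 bp. Among the nearest summits of members with none in a list, those just outside were in replicate 1, at puf-12 and at fbf-1, where the summit lay 2762 bp downstream of the 5' end and past the gene end.

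Set side by side in the same list, the main puf-9 site was several times higher than the best site of the 8 germline members. In the pool it had 99.4 against 16.7 at puf-5, a ratio of 5.95. In replicate 2 it had 64.2 against 14.9 at puf-5, a ratio of 4.29. In replicate 1 it had 30.4 against 3.94 at puf-11, a ratio of 7.73. The puf-9 peak led to the choice of the family, so nothing about soma and germline is read from these ratios. The second puf-9 site, at 13.0, 9.24 and 4.003 in the same order, lay below the best germline site in the pool and in replicate 2 and just above it in replicate 1. The 12 relaxed summits of germline members are list entries, and a site listed in both the pool and replicate 2 was counted in each. Of these 12 entries, 7 were inside another protein-coding gene and 3 were in the 3' untranslated region of the member. The other 2 were intergenic, both at the puf-5 5' end. The −log10 q-values of the 12 entries were 0.0215 to 0.166 in the pool, 0.0526 to 0.333 in replicate 2 and 0.338 in replicate 1.

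**Figure D3:**
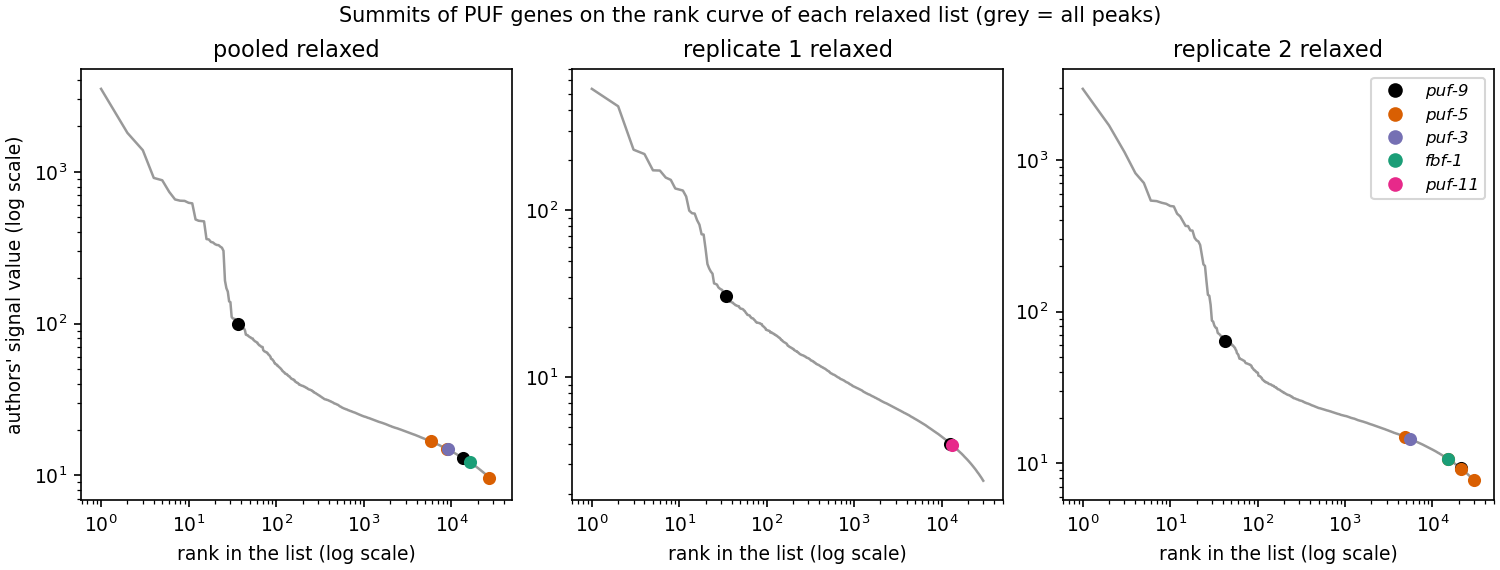
Authors' signal value (vertical axis, log scale) against rank in the list (horizontal axis, log scale) for all peaks of each relaxed list, in grey, with summits of PUF genes as coloured points. The main puf-9 summit ranks 37, 34 and 42, and all other points rank 4805 or lower in strength; the puf-3 point and a puf-5 point overlap in the pooled panel.

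Several members share sequence, which bears on where reads can be placed. Over the 45 pairs of coding sequences, 3 pairs were alike over most of their length, puf-6 with puf-7 (98.5% of the longer coding sequence identical), fbf-1 with fbf-2 (91.7%) and puf-3 with puf-11 (90.6%). Every other pair was at 58.1% or less, and the highest for puf-9 was 50.5%, with puf-12. Over aligned bases alone, puf-9 had 60.7% with puf-12, in a range from 60.3% with fbf-2 to 65.7% with puf-6. Which member is most like puf-9 thus depends on the measure. The share of 30-base words of a window that occur once in the genome was 32.1% at puf-6, 33.4% at puf-7, 59.1% at fbf-1 and 81.6% at fbf-2, against a median of 98.9% for all protein-coding genes. It was 96.5% at puf-3, 95.3% at puf-11 and 100% at puf-9, puf-5, puf-8 and puf-12, and 100% in the thresholded puf-9 peak itself. puf-6 and puf-7, with the lowest shares, had no summit, but fbf-1 at 59.1% had one and fbf-2 at 81.6% had none. The part of repeated sequence in the missing summits was not tested. puf-8 and puf-12 had no summit with windows that were unique throughout.

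**Figure D4:**
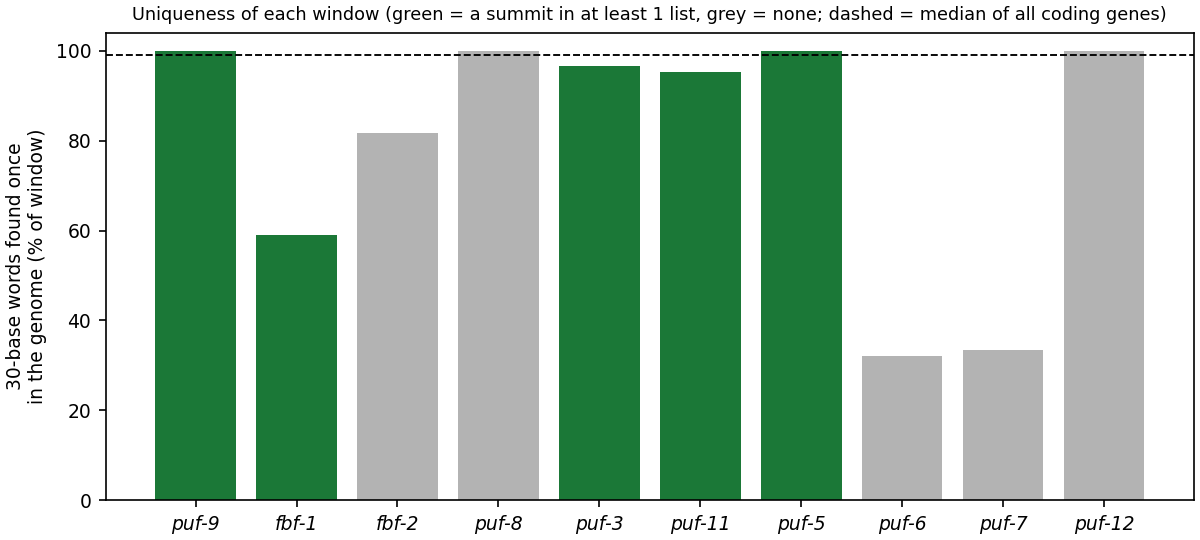
Share of the 30-base words in each PUF gene's window that occur once in the genome (vertical axis, %), green for genes with a summit in at least 1 list and grey for those with none; the dashed line is the median of all protein-coding genes, 98.9%. puf-6 and puf-7 are lowest, at 32.1% and 33.4%, and puf-8 and puf-12 reach 100% without a summit.

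The 7 motifs were searched on both strands in the 300 bases around each summit: the nuclear receptor half-site AGGTCA, its variants GGGTCA and also AGTTCA together with AGTCCA, then GACGCA, next the repeat GAGAGA, and the TATA-like word TATAAA. Earlier results on these peaks had brought up all 7. No half-site or variant of it was found at the puf-9 main site, but each of these words was absent from most windows. AGGTCA was in 5.03% of nuclear thresholded windows, GGGTCA in 4.52%, AGTTCA in 11.6% and AGTCCA in 8.04%. In the nuclear pooled relaxed windows these shares were 5.94%, 3.43%, 19.4% and 5.57%. The puf-9 window held GACGCA once, starting 195 bp upstream of the gene and 59 bp from the summit. It also held GAGAGA once, read as TCTCTC on the gene strand and starting 105 bp on the other side of the summit. GACGCA was in 30.2% of the 199 nuclear thresholded windows and in 5.27% of the 29401 nuclear pooled relaxed windows, and GAGAGA in 38.2% and 13.2%. The puf-3 window also held GACGCA, read as TGCGTC. The windows at the puf-5 5' end and at fbf-1 held none of the 7. In promoters taken as 250 bases before to 50 bases after the gene 5' end, GACGCA was found at puf-9 alone among the 10 members and in 8.78% of all protein-coding genes. AGGTCA was found in the promoter of puf-8, against 8.27% of all, and GGGTCA in those of puf-6 and puf-7, against 4.81%. AGTTCA was also found at puf-8, against 20.4% of all. GAGAGA was found at fbf-1 and puf-12 but not in the puf-9 promoter, against 21.8%, and the word TATAAA at fbf-1 and fbf-2, against 37.9%. No member promoter held AGTCCA, against 5.57% of all.

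The genes most like puf-9 in rank were sought among 9611 protein-coding genes with a summit in all 3 relaxed lists, by the summed difference in log10 rank. dct-11 came first with a difference of 0 because its window holds the same peak. The next was cox-5A (a subunit of cytochrome c oxidase), with a difference of 0.0964 and ranks 35, 31 and 39 in the pool, replicate 1 and replicate 2. rpl-15 (a protein of the large ribosomal subunit) followed with 0.124 and ranks 40, 29 and 40. K11H12.1 and K11H12.8 share the rpl-15 peak, so the 5 genes stand for 2 peaks beside that of puf-9 itself. The cox-5A and rpl-15 summits lay 288 and 340 bp upstream of their genes, close to the 254 bp of puf-9.

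Genes that work with PUF proteins are set beside all protein-coding genes, of which 1.29% had one in the thresholded list, 64.3% in the pool, 72.5% in replicate 1 and 64.6% in replicate 2. Of 11 listed partners and cofactors, 10 were matched by symbol (ntl-1 was not), and of these 0 had a thresholded summit, 6 a pooled one, 7 one in replicate 1 and 7 one in replicate 2. These counts are near the shares of all genes, and nothing particular to the list is read from them. The strongest was dlc-1, a dynein light chain that is a cofactor of FBF-2, 661 bp upstream with a pooled signal value of 32.4 at rank 340. Its ranks were 993 in replicate 1 and 1432 in replicate 2. ccf-1, the deadenylase subunit that PUF proteins recruit, had 29.2 at rank 499 in the pool and rank 199 in replicate 2, but rank 18844 in replicate 1, where the summit lay elsewhere. Of 8 genes whose mRNAs are known targets of PUF proteins, 0 had a thresholded summit, 5 a pooled one and 6 one in each replicate, again near the shares of all genes. They were led in the pool by mpk-1 (19.5, rank 2982) and lip-1 (16.7, rank 5782). The strongest mpk-1 summit lay 6092 bp downstream of the 5' end in the pool, 4261 bp downstream in replicate 1 and 1382 bp upstream in replicate 2. For lip-1 it lay 1230 bp upstream in the pool and 1212 bp in replicate 2, but 319 bp in replicate 1. hbl-1, named for its link to PUF-9 and outside the naming rule, had no pooled summit and ranked 7162 in replicate 1 and 20244 in replicate 2, at different positions. Of 17 germline marker genes, 9 had a pooled summit against 64.3% of all genes, 12 one in replicate 1 against 72.5% and 9 one in replicate 2 against 64.6%. In the thresholded list 1 of the 17 had a summit against 1.29% of all genes, and this was pie-1 (95.7, rank 39), named after its value was seen. Of 10 hypodermis and seam markers, genes of the worm's skin, 4 had a pooled summit, 6 one in replicate 1, 6 one in replicate 2 and 0 a thresholded one, against the same shares of all genes.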

How the data were processed

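The authors deposited peak lists for 2 biological replicates and for their pool, with a signal value and a −log10 q-value per peak. Per the labels and accompanying notes, relaxed lists were called against a control and the thresholded list was selected from the pool by IDR. For peak caller, aligner and IDR cutoff, names and values were not given in the sources used here. Lists on ce11 were used as deposited, with summits counted from 1, and ce10 lists were not used.

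Summits were assigned with Python 3.11.15 and pandas 2.3.3 to windows of each nuclear protein-coding gene (body plus 2000 bp upstream), using the Ensembl annotation of WBcel235, and ranked by signal. Planted summits were used to check the assignment. Coding sequences were aligned end to end with Biopython 1.88. No test was run, since there is 1 group and the members and lists were chosen with earlier results of these data known. Named genes were all members, the gene nearest to each thresholded summit of a member, up to 4 pathway genes by pooled signal and the 5 genes most like puf-9. Outside this rule, hbl-1 was named for its link to PUF-9, pie-1 after its value was seen, and other genes for holding or lying near a summit of a member or near the closest one outside its window. Roles in the germline or soma are background knowledge. Depth is unknown, so no interval is given.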

Additional observations from a re-analysis of the deposited data

How the results depend on the processing

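Of 124 values recomputed under other settings, 107 kept their value or, for counts, ranks and shares, stayed within 1.5 times. Many of these 107 were the signal or rank of puf-9 under settings that kept the same peak, so they had no room to differ. The tally is thus no measure of how stable the site is. Counting each summit only for the nearest gene 5' end of any kind, within 1000 bp, gave the non-coding gene W06B11.7 the main puf-9 site. Under that setting puf-9 had no value, and its missing values are not among the 124. Members with a summit then numbered 0 in the thresholded list, 2 in the pool, 0 in replicate 1 and 2 in replicate 2, and 0 members were in the upper 1000 of either replicate. With protein-coding 5' ends alone, an alternative added after the data were seen, puf-9 kept its site in all 4 lists and replicate 1 had 1 member. In replicate 1 the count of 2 members became 1 with 500 or 1000 bp upstream and 4 with 5000 bp. Leaving out mitochondrial peaks moved the rank of puf-9 to 9 in the thresholded list and in the pool, 11 in replicate 1 and 15 in replicate 2. Members found in both replicates were 1 in all, against 4 without replicate 1 and 2 without replicate 2. Those values are the counts of the remaining replicate alone, so they measure no dependence on processing. Over all annotated nuclear genes, 0.857% had a thresholded summit. No paired analysis was possible because both samples belong to 1 group.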
